A study of Mus musculus with 17 samples.

Results

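The genes described here encode core proteins of the RAS, RAF, MEK and ERK cascade: the RAS GTPases Hras and Nras, the RAF kinase Braf, the MEK kinases Map2k1 and Map2k2, and the ERK kinase Mapk3. They were picked by gene symbol, with earlier results of these data known, and all 6 were found among the 25198 rows of a table of RNA-seq counts. Other genes of these families are not analysed here. The samples were antral ovarian follicles of CD1 mice aged 16 days kept in culture for 8 days of growth in eIVFG (encapsulated in vitro follicle growth). The 6 Tyrphostin libraries came from follicles exposed for 4 h to hCG, the hormone used to start ovulation in culture, together with 10 µM Tyrphostin-AG1478, an inhibitor of the EGF receptor kinase dissolved in DMSO. The other 11 libraries are labelled Control. Since 1 treatment text covers all samples, it is not stated if Control follicles were given hCG or DMSO. By the labels, batch 1 holds 6 Control and 3 Tyrphostin libraries, and batch 2 has 5 and 3. Several follicles went into each sample. No allele or transgene is named, and the labels do not say which libraries share animals or cultures, so p-values measure only the spread between these libraries. The question is whether the Tyrphostin libraries had different mRNA levels of the cascade that carries the receptor's signal. If Control follicles were given no hCG or DMSO, the effects of these and of the inhibitor cannot be told apart here.

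In this cascade an activated receptor recruits exchange factors that load RAS with GTP. RAS brings RAF kinases to the membrane, RAF phosphorylates the MEK kinases, and MEK phosphorylates the ERK kinases, which act on cytoplasmic proteins and on transcription factors. In granulosa cells of the preovulatory follicle, the hormone signal raises EGF-like ligands, and ERK activity downstream of their receptor is needed for ovulation. The activity of the cascade is set by GTP loading and phosphorylation, which these counts of mRNA do not measure.

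Library totals ran from 1820545 counts in Control 6 to 8291024 in Control 8, so 3 counts were worth between 0.336 CPM (counts scaled to a common library size, here by TMM) in Control 8 and 1.64 CPM in Control 6. Intervals given for single libraries are 95% Wilson intervals and, like these floors, take in only the counting error of reads. They are too narrow even for the counting error of molecules, because reads copied by PCR are not independent molecules. Control 7 stood apart in its share of counts from mitochondrially encoded genes, 0.1746% against 0.7813% to 2.831% in the other 16 libraries. The next lowest were the batch 2 Tyrphostin libraries 4, 5 and 6, at 0.7813%, 1.318% and 0.7972%, and the part of this share in the batch 2 values was not tested. Granulosa markers summed to between 52720 and 81270 CPM, although Amh was at 0 in 12 libraries and Foxl2 at 0 in 3. Inha and Inhba, with medians of 44100 and 23400 CPM, made up most of this sum, and no other granulosa marker had a median above 214 CPM. Summed oocyte markers ranged from 25.9 to 184.8 CPM in Control and from 30.7 to 288.5 CPM in Tyrphostin libraries, theca and stroma markers from 268.7 to 2165 and from 274.5 to 3090 CPM, endothelial markers from 8.54 to 88.7 and from 8.77 to 32.9 CPM, and immune markers from 17.4 to 461.8 and from 18.3 to 854.7 CPM. No marker of these lists was at 0 in all libraries. Treatment was tested by the quasi-likelihood test of edgeR, at 0.05 after adjustment. Of the markers tested, 0 of 9 oocyte, 9 theca and stroma, 2 endothelial and 2 immune ones passed (1, 0, 1 and 0 before adjustment). Of 7 granulosa markers tested, 4 passed (4 before adjustment), all of them higher, beside 10.6% of all genes called, 4.35% higher. The granulosa sum was 69390 ± 4962 CPM in Control (SD, n = 11) and 68230 ± 9301 CPM in Tyrphostin libraries (SD, n = 6). Being mostly Inha and Inhba, which did not pass, this sum says little of the 4 granulosa markers that did. The part of these markers in the treatment differences was not tested. In bulk samples like these, fewer cells of a type and less RNA per cell cannot be told apart.

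The promoters of Nras, Braf and Map2k2 are printed here, because among the 5 members tested between batches of Control libraries these had the largest differences. Hras was not tested there. They are the 250 bases before the transcription start, from RefSeq on GRCm38.p6, in which 5 of the 6 members were matched. Capitals mark the CRE in Braf and the GC boxes in Nras and Map2k2, and no other match is marked. Nras lies at chr3:103058035-103058284 on the plus strand, Braf at chr6:39725464-39725713 on the minus strand and Map2k2 at chr10:81105665-81105914 on the plus strand.
Nras: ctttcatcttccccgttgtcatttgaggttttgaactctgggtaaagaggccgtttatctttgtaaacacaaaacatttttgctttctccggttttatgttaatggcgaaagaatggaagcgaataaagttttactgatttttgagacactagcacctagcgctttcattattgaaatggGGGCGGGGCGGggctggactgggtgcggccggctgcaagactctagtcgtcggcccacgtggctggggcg
Braf: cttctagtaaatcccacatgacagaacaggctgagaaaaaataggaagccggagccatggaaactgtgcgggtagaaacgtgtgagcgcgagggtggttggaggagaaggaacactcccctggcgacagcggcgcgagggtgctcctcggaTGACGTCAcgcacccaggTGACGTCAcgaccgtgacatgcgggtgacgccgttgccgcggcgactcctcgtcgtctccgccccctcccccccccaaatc
Map2k2: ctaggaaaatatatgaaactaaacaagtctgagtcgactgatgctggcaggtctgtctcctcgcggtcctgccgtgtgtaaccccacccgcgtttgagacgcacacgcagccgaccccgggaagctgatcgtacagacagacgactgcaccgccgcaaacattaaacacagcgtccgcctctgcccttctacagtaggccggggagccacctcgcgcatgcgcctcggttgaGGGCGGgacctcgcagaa

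A total of 8 motifs were searched on both strands: the CRE TGACGTCA, the short CRE TGACG (which every CRE contains), the GC box GGGCGG, the CCAAT box CCAAT, the ETS core CCGGAA, the EGR site GCGNGGGCG, the E-box CACGTG and the TATA motif TATAAA. The Braf window held 2 copies of the CRE, which begin 99 and 81 bases before the start. The same window held a GC box at 23 bases and 5 short CREs, of which the 1 at 56 bases lies outside the CREs. A CRE was found in 1.55% of the 32851 promoter windows in the table, and 2 or more copies in 0.0304%. The Nras window held GC boxes that begin 70 and 65 bases before the start and share a base, with an E-box at 15 bases. The Map2k2 window held a GC box at 18 bases. GC boxes were in 32.7% of all windows, E-boxes in 6.02%, short CREs in 17.8%, CCAAT boxes in 33.8%, ETS cores in 12%, EGR sites in 4.7% and TATA motifs in 12.4%. The GC content was 62% in the Braf window, 59.6% in Map2k2 and 48.4% in Nras, beside a median of 52.4% over all windows. These are matches of letters and say nothing of which factors bind.

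Levels were first compared between genes per length of exon, as CPM divided by the kilobases of exon (RPKM). Map2k1, which encodes MEK1, was the most abundant member at 136 ± 38.2 RPKM (SD, n = 17), followed by Map2k2, which encodes MEK2, at 17.4 ± 4.44 RPKM and Nras at 11.2 ± 3.90 RPKM. Mapk3, which encodes ERK1, stood at 2.74 ± 1.34 RPKM, Braf at 2.64 ± 1.80 RPKM and Hras at 0.507 ± 0.229 RPKM. Map2k1 was above Map2k2, and Nras above Mapk3, in 17 of 17 libraries. Map2k2 was above Nras in 14 libraries and Braf above Hras in 16. Mapk3 was above Braf in 9 of 17 libraries, and the order was not the same in all groups. In Control batch 1 Mapk3 ran from 2.25 to 6.55 RPKM and Braf from 0.632 to 1.35 RPKM, whereas in Tyrphostin batch 2 Mapk3 ran from 1.82 to 2.37 RPKM and Braf from 4.29 to 5.39 RPKM. With exon lengths from the basic transcript set, chosen after seeing the data, Map2k2 rose to 40.9 RPKM and Braf, at 3.76 RPKM, stood above Mapk3, at 3.07 RPKM. Map2k1 was the highest and Hras the lowest member under either set of lengths.

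With Tyrphostin, Mapk3 was the single member that passed the test, and it was lower, with a mean of 7.44 ± 2.90 CPM over the Control libraries (SD, n = 11) and of 3.85 ± 1.56 CPM with Tyrphostin (SD, n = 6). Nras showed a smaller difference in the same direction that did not pass, and Hras, Braf, Map2k1 and Map2k2 did not pass, with intervals that include 0. All 6 members were kept by the filter on low counts. The 1 call of 6, a lower one, stands beside 10.6% called in either direction and 6.25% called lower (4.35% higher) among the 9603 genes tested. The median log2 fold change of the members was -0.25, and that of all genes tested was 0.0001. Leaving out Tyrphostin 1, 3 or 6 ended the Mapk3 call (adjusted p = 0.0783, 0.0677 and 0.0564, edgeR). Total-count scaling also ended it (-0.83 on the log2 scale, adjusted p = 0.0693), as did a fit with no batch term (adjusted p = 0.0552), log10 total count as a covariate (0.083) and Control libraries summed by set (0.0552). Blocks by replicate number gave an adjusted p of 0.276. The treatment effect in that fit rests on libraries 1, 2 and 3 of each group, all of batch 1.

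**Figure D1:**
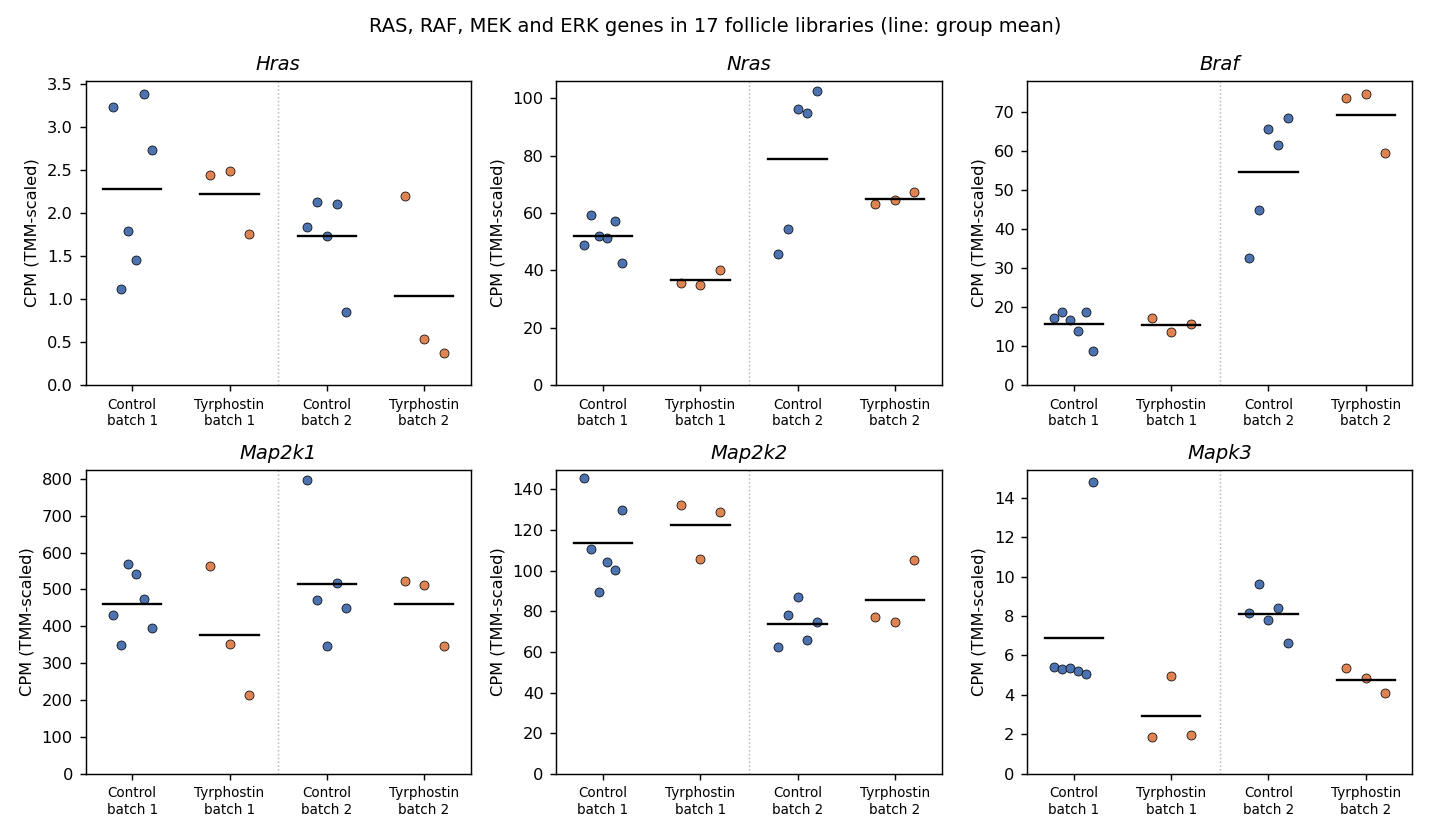
CPM (TMM-scaled, linear axis from 0) of the 6 genes in each of the 17 libraries, split by treatment and batch; points are libraries and lines are group means. Mapk3 is lower in Tyrphostin within both batches, and Braf separates the batches in both groups.

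Hras, a RAS GTPase at chr7:141189105-141194005 on the minus strand of GRCm38, had few counts, between 2 and 19 per library, around the floor of 3 counts. Its level ran from 0.854 to 3.39 CPM in Control, with a median of 1.84, and from 0.373 to 2.49 CPM in Tyrphostin, with a median of 1.98. The lowest 2 values, in Tyrphostin 5 and 6, rested on 2 counts each, and the groups overlapped. The log2 fold change was -0.28 ± 0.37 (SE; 95% interval -1.05 to 0.49; adjusted p = 0.713, edgeR), an interval that spans 0 widely.

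Nras, the other RAS GTPase measured, lies at chr3:103058285-103067914 on the plus strand. In batch 1 the Control libraries 1 to 6 had 48.8, 59.4, 52.0, 51.3, 57.3 and 42.7 CPM, and Tyrphostin 1 to 3 had 35.4, 34.8 and 40.0 CPM. All 3 Tyrphostin libraries were below all 6 Control libraries there, as they were for 6.3% of all genes tested. In batch 2 the Control libraries 7 to 11 had 45.7, 54.3, 96.4, 95.1 and 102.7 CPM, and Tyrphostin 4 to 6 had 63.1, 64.4 and 67.3 CPM. The batch 2 groups overlapped, since Control 7 and 8, which share a set number in their library names, lay below all 3 Tyrphostin libraries and the other Control libraries well above them. Over both batches the log2 fold change was -0.39 ± 0.17 (95% interval -0.74 to -0.05), with p = 0.0284 before and adjusted p = 0.152 after adjustment in edgeR, beside 23.7% of all genes with an unadjusted p under 0.05. Leaving out Control 7, the library with the low mitochondrial share, brought Nras past the threshold (-0.46, adjusted p = 0.0303).

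The number of Hras counts per Nras count in the same library does not depend on library scaling. It ran from 0.00832 to 0.0663 in Control and from 0.00554 to 0.0714 in Tyrphostin libraries, so Nras mRNA outnumbered Hras in every library by these counts, which are not set per length. The difference in log2 ratio between treatments was 0.51 in batch 1 and -0.79 in batch 2, and -0.14 over both (two-sided exact permutation of labels within batches, p = 0.758, adjusted p = 0.758 over 2 ratios).

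Braf encodes the RAF kinase of the group and lies at chr6:39603237-39725463 on the minus strand. Controls 1 to 6 had 17.3, 18.7, 16.7, 13.9, 18.6 and 8.76 CPM, and Tyrphostin 1 to 3 had 17.2, 13.7 and 15.6 CPM. Controls 7 to 11 had 32.5, 44.9, 65.6, 61.5 and 68.5 CPM, and Tyrphostin 4 to 6 had 73.7, 74.7 and 59.5 CPM. Every batch 2 library was above every batch 1 library, while treated and Control libraries overlapped within each batch. Among Control libraries, 3.98% of genes had a batch 2 entirely above batch 1. The treatment difference was 0.16 ± 0.18 on the log2 scale (95% interval -0.20 to 0.53, adjusted p = 0.638, edgeR). Of the Braf exon bases, 146 (1.05%) overlap Ndufb2 on the other strand, and whether counting used strand is not given in the sources used here.

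Among the 11 Control libraries alone, Braf was higher in batch 2 by 1.81 ± 0.24 on the log2 scale (95% interval 1.31 to 2.32, adjusted p = 0.000213, edgeR), from 15.7 ± 3.80 (SD, n = 6) to 54.6 ± 15.4 CPM (SD, n = 5). It ranked 32 of 6680 genes by p in that comparison, in which 14% of genes passed, 7.26% higher and 6.77% lower in batch 2. Among the 6 Tyrphostin libraries, a comparison added after seeing the data, the difference was 2.18 ± 0.26 (adjusted p = 0.00145), from 15.5 ± 1.77 to 69.3 ± 8.48 CPM (SD, n = 3 each), beside 4.44% of genes called, 2.31% higher. The call held without any 1 library in both comparisons, with differences of 1.71 to 1.96 in Control and 2.07 to 2.28 in Tyrphostin libraries.

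The other members differed less between batches. Map2k2 was lower in batch 2 of the Control libraries by 0.59 ± 0.17 on the log2 scale (log2 difference -0.59, adjusted p = 0.0316), from 113 ± 20.6 to 73.6 ± 9.79 CPM. This call was lost without Control 1, 2, 6, 8, 10 or 11, with total-count scaling (-0.43, adjusted p = 0.123) and with no filter on low counts (-0.60, adjusted p = 0.118). In Tyrphostin libraries the Map2k2 difference was -0.50 ± 0.26 (adjusted p = 0.301). Nras differed by 0.63 ± 0.22 in Control (adjusted p = 0.0698) and by 0.84 ± 0.24 in Tyrphostin libraries (adjusted p = 0.0676), and passed in both with total-count scaling (adjusted p = 0.0274 and 0.0442). Map2k1 differed by 0.19 ± 0.22 in Control (adjusted p = 0.623) and by 0.32 ± 0.35 in Tyrphostin libraries (adjusted p = 0.653), while Mapk3 differed by 0.36 ± 0.28 in Control libraries (adjusted p = 0.429). Hras in both comparisons, and Mapk3 among Tyrphostin libraries, were removed by the filter on low counts.

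Cell type markers were set beside these differences among Control libraries, where 14% of all genes passed. The theca and stroma markers summed to 522 ± 199 CPM (SD, n = 6) in Control batch 1 and 1266 ± 817 CPM (SD, n = 5) in batch 2, and 4 of the 8 tested passed. The immune markers summed to 36.2 ± 16.3 and 199 ± 178 CPM, and 1 of 2 passed. Oocyte markers summed to 51.7 ± 19.9 and 110.5 ± 56.9 CPM, and 1 of 2 passed. Endothelial markers had a lower sum in batch 2, at 41.0 ± 29.8 and 15.99 ± 5.45 CPM, and 0 of 1 passed. Granulosa markers, mostly Inha and Inhba, summed to 71670 ± 4894 and 66650 ± 3804 CPM, and 1 of 7 passed. The part of all these markers in the Braf, Nras and Map2k2 values was not tested.

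**Figure D2:**
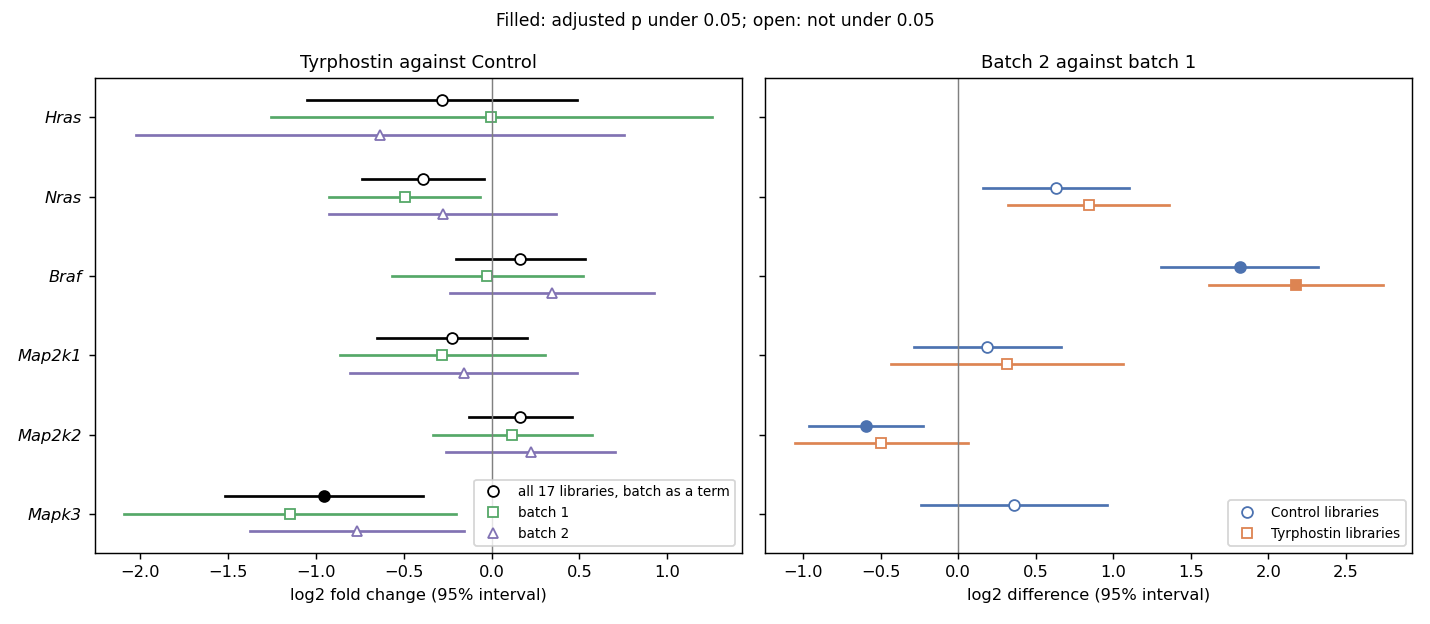
Left, log2 fold change of Tyrphostin against Control for each gene over all libraries and within each batch; right, log2 difference of batch 2 against batch 1 within Control and within Tyrphostin libraries. Bars are 95% intervals and filled symbols have an adjusted p under 0.05: Mapk3 for treatment, Braf in both batch comparisons and Map2k2 among Control libraries.

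The MEK kinases form the next tier. Map2k1, at chr9:64185770-64253631 on the minus strand, had from 346.2 to 796 CPM in Control (median 470.6) and from 213 to 565 CPM in Tyrphostin libraries (median 432.8). The highest value was in Control 7 and the lowest in Tyrphostin 3, and all other libraries lay between 346.2 and 570.3 CPM, with the groups overlapping. The log2 fold change was -0.23 ± 0.21 (95% interval -0.65 to 0.20, adjusted p = 0.56, edgeR). Map2k2, at chr10:81105915-81133975 on the plus strand, had from 62.5 to 145.6 CPM in Control (median 89.7) and from 74.9 to 132 CPM in Tyrphostin libraries (median 105.5). Its log2 fold change was 0.16 ± 0.14 (95% interval -0.13 to 0.46, adjusted p = 0.538, edgeR), and its groups overlapped in both batches.

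The paralogs were then set against each other within each library. There were 5.64 ± 2.83 counts of Map2k1 per count of Map2k2 in Control (SD, n = 11) and 4.37 ± 2.08 in Tyrphostin libraries (SD, n = 6). The ratio ran from 1.65 in Tyrphostin 3 to 12.7 in Control 7, so Map2k1 counts exceeded Map2k2 counts in every library. The log2 ratio was lower with Tyrphostin in both batches, with differences of -0.50 and -0.34, and the difference of -0.42 over both was within the spread between libraries (two-sided exact permutation test, 4704 arrangements within batches, p = 0.161, adjusted p = 0.322 over 2 ratios). The transcripts of the paralogs share 7 stretches of 50 bases, 0.207% of those of Map2k1 and 0.122% of those of Map2k2.

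**Figure D3:**
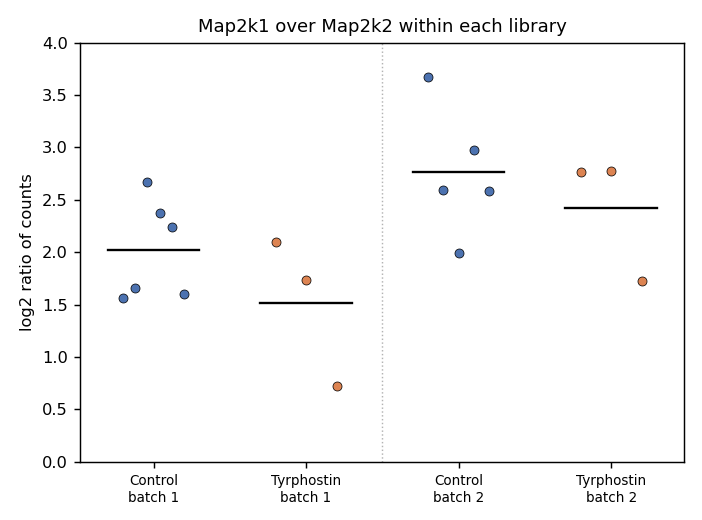
Log2 ratio of Map2k1 to Map2k2 counts in each library (points) with group means (lines), by treatment and batch. All 17 libraries lie above 0, and the treated libraries overlap the Control libraries in both batches.

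Mapk3, the ERK kinase, lies at chr7:126759601-126765819 on the plus strand. Control 1 to 5 had 5.39, 5.34, 5.38, 5.22 and 5.08 CPM, and Control 6 had 14.8 CPM. Tyrphostin 1 to 3 had 1.87, 4.97 and 1.95 CPM. In batch 1 the treated libraries were thus all below the Control libraries, but Tyrphostin 2 came within the counting error of the lowest of them: its 32 counts give an interval of 3.52 to 7.02 CPM. That order depends on scaling, since the lowest Control value fell below Tyrphostin 2 by 0.262 CPM with TMM factors from all genes (a difference of -0.262) and by 0.774 CPM with total counts (-0.774), both tried after seeing the data.

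In batch 2, Control 7 to 11 had 8.14, 9.64, 7.82, 8.43 and 6.62 CPM of Mapk3 and Tyrphostin 4 to 6 had 5.35, 4.85 and 4.10 CPM. All 3 treated libraries were again below all Control libraries. Groups that do not overlap within either batch, with Tyrphostin lower, were found for 2.21% of all genes tested, for 6.3% in batch 1 alone and for 5.08% in batch 2 alone. Over all libraries pooled the Mapk3 groups overlapped, since Tyrphostin 4, at 5.35 CPM, lay above Control 2, 4 and 5 of batch 1, while the other 5 Tyrphostin libraries lay below every Control library.

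The log2 fold change of Mapk3 was -0.96 ± 0.27 (SE; 95% interval -1.52 to -0.39, p = 0.00186, adjusted p = 0.0248, edgeR), rank 719 of 9603 by p. Within batch 1 it was -1.15 ± 0.45 (p = 0.0202, adjusted p = 0.145) and within batch 2 it was -0.77 ± 0.28 (p = 0.0178, adjusted p = 0.307), in fits by edgeR that called 6.73% and 0.621% of genes. Control 6, with 27 Mapk3 counts and an interval of 10.2 to 21.5 CPM, was also the library of lowest depth. Without Control 6 the log2 fold change was -0.80 (adjusted p = 0.0238). Mapk3 had from 10 to 86 counts per library, and the interval of Tyrphostin 3, which had the 10, ran from 1.06 to 3.59 CPM. The 4 granulosa markers that passed were higher with Tyrphostin. Of those tested that did not pass, Inha was at -0.05, Inhba at -0.07 and Fst at 1.05 on the log2 scale. The part of the granulosa markers in the Mapk3 value was not tested.

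Within batches, edgeR called 0 of 6 members in either fit, and at an unadjusted p under 0.05 there were 2 in batch 1 (Nras and Mapk3), beside 21.2% of all genes tested, and 1 in batch 2 (Mapk3), beside 10.7%. In batch 1 Nras was at -0.49 ± 0.20 on the log2 scale (adjusted p = 0.166), Map2k1 at -0.28 ± 0.28 (0.627 adjusted), Map2k2 at 0.12 ± 0.22 (0.816 adjusted), Braf at -0.02 ± 0.26 (0.970 adjusted) and Hras at 0.00 ± 0.60. In batch 2 Nras was at -0.28 ± 0.30 (adjusted p = 0.831), Map2k1 at -0.16 ± 0.30 (0.917 adjusted), Map2k2 at 0.22 ± 0.22 (0.809 adjusted), Braf at 0.34 ± 0.27 (0.741 adjusted) and Hras at -0.64 ± 0.64 (0.812 adjusted). The difference between batches in treatment effect was tested as an interaction, and edgeR called 0 of 9603 genes (0%), with 342 (3.56%) at an unadjusted p under 0.05. For the members that difference was 0.38 ± 0.54 in Mapk3, 0.38 ± 0.36 in Braf, 0.22 ± 0.34 in Nras, 0.12 ± 0.42 in Map2k1, 0.11 ± 0.29 in Map2k2 and -0.62 ± 0.76 in Hras. The 95% interval ran from -0.735 to 1.5005 in Mapk3 and from -2.19 to 0.94 in Hras. Sizeable differences in treatment effect between batches are thus not excluded in these genes.

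The rest of the pathway was described from lists, ordered from the membrane inward. Of 10 genes listed for exchange factors, which load RAS or related GTPases with GTP, 5 were tested and 0 passed in edgeR or DESeq2. At an unadjusted p under 0.05 there were 0 in edgeR (median log2 fold change -0.16). Sos2, the exchange factor with the highest counts, was at 274.4 ± 176 CPM in Control and 177 ± 138 CPM in Tyrphostin libraries (-0.85 ± 0.52, adjusted p = 0.353). Rapgef6, which is in this list but acts on RAP GTPases, was at 12.2 CPM over all libraries (-0.04 ± 0.25, adjusted p = 0.95). Of 11 genes listed for GTPase-activating proteins, which switch RAS off, 9 were tested and 0 passed in either tool (median -0.19). The 1 gene at an unadjusted p under 0.05 in edgeR was Spred3 (-0.79 ± 0.35, p = 0.0345), which is not itself a GTPase-activating protein. In that list Rasa2 was at 0.26 ± 0.17 (adjusted p = 0.402) and Nf1, which encodes neurofibromin, at 0.00 ± 0.23 (adjusted p = 0.998).

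GTPases related to RAS moved in both directions. Of 16 listed, 10 were tested, and 2 rose and 1 fell (median 0.23). Ralb, a GTPase activated downstream of RAS through its own exchange factors, rose from 30.0 ± 7.49 to 68.2 ± 23.1 CPM (SD, n = 11 and 6; 1.17 ± 0.17, adjusted p = 7.26e-05), with 5 of 6 Tyrphostin libraries above all Control libraries. Mras, which joins SHOC2 and a phosphatase in a complex that activates RAF, rose from 3.11 ± 1.19 to 7.44 ± 4.07 CPM (1.14 ± 0.29, adjusted p = 0.0126). It had at most 73 counts in a library, and 3 of 6 Tyrphostin libraries were above all Control libraries. The Mras difference was 1.75 within batch 1 and 0.41 within batch 2. Rras2 fell from 32.3 ± 21.8 to 9.35 ± 2.89 CPM (-1.78 ± 0.35, adjusted p = 0.00179), with all 6 Tyrphostin libraries, at 5.41 to 12.4 CPM, below all Control libraries, at 16.98 to 89.9 CPM. Groups apart in this direction over all libraries were found for 1% of genes tested. For groups apart in only part of the Tyrphostin libraries, the share over all genes was not counted.

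Of 14 genes of RAS lipid modification, trafficking and turnover, 12 were tested and 0 passed in either tool, with 2 at an unadjusted p under 0.05 (median 0.24). Golga7, part of a palmitoyltransferase for RAS, was at 89.6 ± 29.5 CPM in Control and 88.7 ± 8.49 CPM in Tyrphostin libraries, and Fnta, a farnesyltransferase subunit, at 22.8 ± 21.0 and 36.2 ± 25.4 CPM (0.87 ± 0.56, adjusted p = 0.381). Of 26 scaffolds and regulators of RAF, MEK and ERK, 23 were tested, and 2 rose and 1 fell (median -0.12). Ksr1, a scaffold that holds RAF, MEK and ERK together, rose from 2.95 ± 1.52 to 5.80 ± 1.51 CPM (1.00 ± 0.29, adjusted p = 0.0262). Its counts were low, at most 44 in a library, and 5 of 6 Tyrphostin libraries were above all Control libraries. Mras is the other gene of this list that rose. Ywhaz, a 14-3-3 protein that binds phosphorylated RAF, fell from 1933 ± 598 to 1107 ± 356 CPM (-0.78 ± 0.19, adjusted p = 0.00809), with 4 of 6 Tyrphostin libraries below all Control libraries.

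Of 5 other kinases that phosphorylate MEK, 4 were tested, and 1 rose and 1 fell. Map3k1, better known for the JNK branch, rose from 43.3 ± 18.7 to 129 ± 84.0 CPM (1.35 ± 0.25, adjusted p = 0.00122), with 3 of 6 Tyrphostin libraries above all Control libraries. Map3k2 fell from 9.72 ± 4.06 to 5.01 ± 2.18 CPM (-0.96 ± 0.31, adjusted p = 0.0482), a call lost with total-count scaling. For Map3k2, 0 of 6 Tyrphostin libraries were below all Control libraries. Of 17 kinases of the parallel MAP kinase branches, 10 were tested, and 1 rose and 1 fell (median 0.11). Map2k3, a kinase of p38, fell from 131 ± 55.5 to 72.5 ± 28.4 CPM (-0.80 ± 0.17, adjusted p = 0.00276), with 3 of 6 Tyrphostin libraries below all Control libraries. Mapk9, which encodes JNK2, rose from 9.90 ± 4.59 to 18.2 ± 3.96 CPM (0.88 ± 0.23, adjusted p = 0.0169), with 3 of 6 above all Control libraries. Of the 10 kinases activated by ERK, all were tested and 0 passed in either tool, with 2 at an unadjusted p under 0.05 (median -0.22). Rps6ka2, a ribosomal S6 kinase, was at 223 ± 147 CPM in Control and 281.6 ± 148 CPM in Tyrphostin libraries (0.37 ± 0.34, adjusted p = 0.558), and Mapkapk3 at 35.0 ± 8.07 and 29.4 ± 5.85 CPM (-0.26 ± 0.17, adjusted p = 0.387).

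Over these 8 lists, 9 of the 82 genes tested passed (11%), 5 higher and 4 lower, near the 10.6% of all genes, and their median was -0.01. The list of ERK feedback and immediate target genes, chosen with its fall in these samples already known and therefore no independent evidence, had 10 of 19 tested genes lower and 0 higher, with a median of -1.12 and 19 of 19 below 0. Among them Dusp6, a phosphatase of ERK, fell from 567.8 ± 131 to 137 ± 43.4 CPM (-2.05 ± 0.22 on the log2 scale, adjusted p = 1.88e-06, edgeR). Errfi1, an inhibitor of the EGF receptor, was at -2.59 ± 0.31, Fosl1 at -2.38 ± 0.29 and Egr1 at -1.71 ± 0.22, with adjusted p from 7.31e-06 to 1.37e-05, and in all 4 genes the 6 Tyrphostin libraries were below all Control libraries. Under total-count scaling the median of all genes moved to 0.15, and 715 genes were higher and 396 lower in place of 418 and 600.

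**Figure D4:**
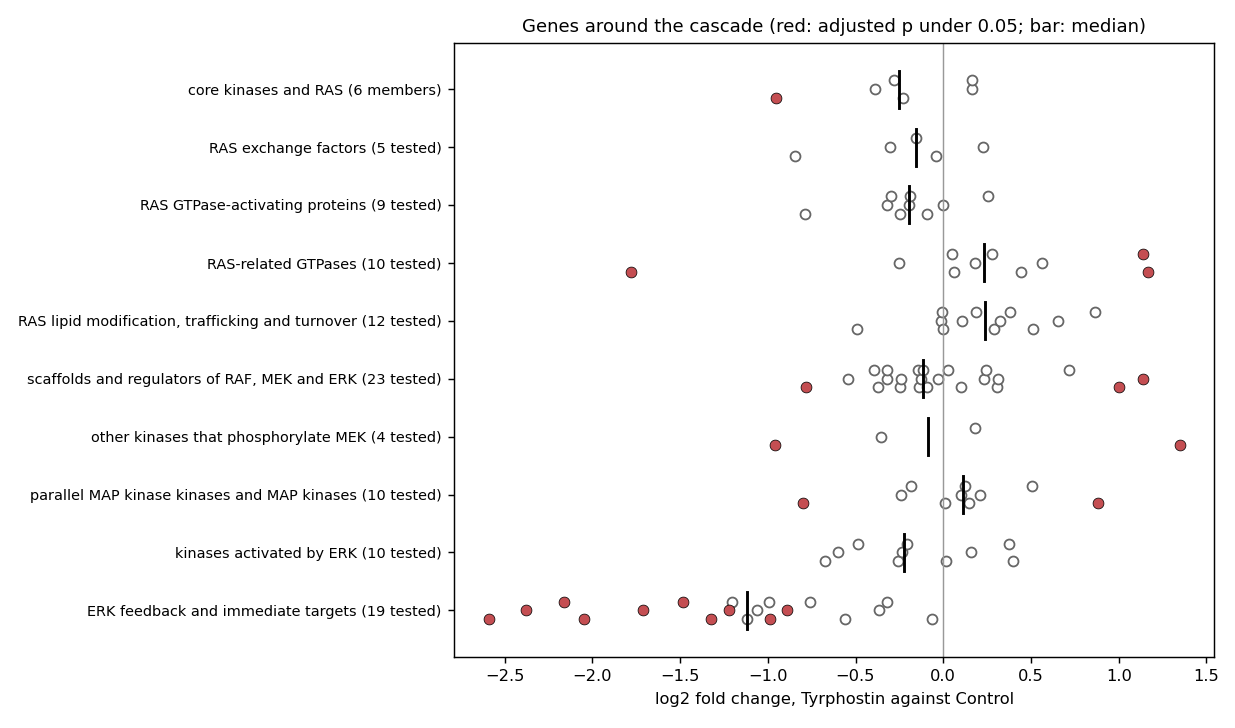
Log2 fold change of Tyrphostin against Control (horizontal axis) for the tested genes of each list (points) with the median (bar); red points have an adjusted p under 0.05. The 8 lists of regulators and neighbouring kinases have medians between -0.22 and 0.24, and the list of ERK feedback and immediate targets has its median at -1.12.

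Genes whose levels followed each member most closely were named by Pearson's r of log2 CPM over the 17 libraries after the batch means were removed, as a description only, since all points share libraries and depth. For Map2k1 these were Ldha (r = 0.94), Ak4 (0.934) and Gys1 (0.929), of 6332 genes compared. For Nras they were Tbce (0.883), Naa50 (0.882) and Gsdme (0.873), and for Braf Zc3hav1 (0.896), Wasl (0.892) and Gorab (0.885). For Map2k2 they were Rnf141 (0.858), Akt1s1 (0.795) and Tmem246 (0.746). For Mapk3 they were Ripor1 (0.849), Col24a1 (0.845) and Stxbp2 (0.834), of 6333 compared, and for Hras Prpf38a (0.782), Slc35f6 (0.728) and Gucd1 (0.719). Col24a1 was itself called lower with Tyrphostin (-1.19, adjusted p = 0.0152, edgeR), and the other 17 genes did not pass. Ldha, which encodes a lactate dehydrogenase subunit, Ak4, an adenylate kinase of mitochondria, and Gys1, a glycogen synthase, had log2 fold changes of -0.31, -0.77 and -0.86 (adjusted p = 0.631, 0.29 and 0.328).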

How the data were processed

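RNA-seq was measured in 17 libraries of pooled mouse follicles. Per the labels' protocols, Smart-Seq2, a method without molecular identifiers, was applied to RNA cleaned with RNA-SPRI beads. The table deposited by the authors gives raw counts for 25198 gene symbols, and 3576 rows were 0 throughout. The submitters' processing notes name STAR, HTSeq and GRCm38; versions, annotation and strandedness are not given in the sources used here. The 6 genes and the gene lists were chosen with earlier results of these data known.

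In R 4.3.3, the counts were fitted by edgeR 4.0.16 (filterByExpr on treatment, TMM, robust glmQLFit, quasi-likelihood F test), with batch as a term, Benjamini-Hochberg adjustment over all genes tested and a threshold of 0.05. The standard error is the log2 fold change divided by the square root of F, and intervals are at 95%. The treatment effect was also fitted within each batch and as an interaction, and batches were compared among Control libraries and, added after seeing the data, among Tyrphostin libraries. CPM use TMM-scaled totals, and RPKM use union exon lengths of GENCODE M21 on GRCm38. Ratios of counts had 0.5 added to each count in log2 form. Within group and batch, each of 31 pairs of libraries exceeded sampling noise (chi-square over degrees of freedom, 11.8 to 84.1), and none was treated as a copy. From each list, up to 4 genes of lowest p that passed were named, or, where none passed, the 2 with the highest mean CPM; for each member the 3 genes most alike were named among those with a mean log2 CPM of at least 3 (prior count 2).

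Alternatives were limma-voom (limma 3.58.1), DESeq2 1.42.0, scaling by total counts, RLE or upper quartile, other filters, other covariates, Control libraries summed by set, a threshold of 0.01 and omission of each library in turn. The code was tested on simulated data, in which the main fit recovered 4 of 65 changes of 0.5 on the log2 scale. It recovered 35 of 63 changes of 1 and 63 of 65 changes of 2, so small changes can be missed.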

Additional observations from a re-analysis of the deposited data

Results flagged for a closer look

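The search for single libraries that stand apart covered 27 groups of libraries over 9 measures (the 6 genes among them). Control libraries were split by batch, but Tyrphostin libraries of both batches were pooled, where a batch shift such as that of Braf can hide such a library. In all, 2 values stood out, where chance gives about 1.35 if the groups are taken as independent and normally spread. Mapk3 in Control 6 was at 14.8 CPM (14.78), while the other 5 Control libraries of batch 1 lay between 5.08 and 5.39 CPM, so the gap was 0.968 of the range. The total of Control 6, 1820545 counts, was below the 3807300 to 4834875 counts of the same 5 libraries, a gap of 0.659 of the range. Both values belong to the same library, and the log2 fold change of Mapk3 without it was -0.80 (adjusted p = 0.0238, edgeR).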

How the results depend on the processing

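The Mapk3 log2 fold change of -0.96 was negative under 12 of 12 alternatives and 17 of 17 omissions of a library, from -1.15 to -0.80. Its call held with RLE and upper-quartile scaling, DESeq2 (-0.96, adjusted p = 0.00496), limma-voom (-0.93, adjusted p = 0.0136) and both other filters, and was lost with total counts (-0.83), no batch term (-0.93, adjusted p = 0.0552), log10 total count as a covariate (-0.82, adjusted p = 0.083), Control libraries summed by set (-0.90, adjusted p = 0.0552) and a threshold of 0.01 (-0.96); under each of these 0 members were called, and 0 to 2 when a library was left out. Genes called over all libraries (1018) were 619 with no batch term, 678 with the depth covariate, 478 at 0.01 and 708 to 1314 without a library. Replicate numbers were tried as pairs. Of the 6 same-numbered pairs, 2 had correlated deviations over 0.1, and 2 of 6 Tyrphostin libraries correlated best with their own number. Pair 1 had the highest correlation (r = 0.323), and pairs 4, 5 and 6 each join libraries of different batches. The labels do not say if same-numbered libraries belong together, and these correlations cannot decide it. With a replicate block, the treatment effect rests on pairs 1, 2 and 3 of batch 1 alone. Pairs 4, 5 and 6 are taken up by the batch term, and Control 7 to 11 have no partner. In that fit 636 genes and 0 members were called, Mapk3 was at -0.95 (adjusted p = 0.276, edgeR), and Hras and Braf changed sign to 0.19 and -0.19. These values cannot be read as a check over all libraries.

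Within batch 1, where 634 genes were called (394 to 687 without a library), Hras turned to 0.15 with total counts and 0.073 with no filter (-0.16 to 0.15 without a library), Braf to 0.14 and 0.047 (-0.13 to 0.068), and Map2k1 ran from -0.69 to 0.013. In batch 2 the 61 genes became 222 with no filter and 11 to 221 without a library, and Map2k1 ran from -0.27 to 0.048. The interaction gave 79 genes with no filter, and ran from -0.14 to 0.53 in Map2k1 and -0.067 to 0.22 in Map2k2. Between Control batches (637 to 1025 genes without a library), Nras was 0.81 with total counts and 0.51 to 0.79 without a library (called without Control 7), Map2k2 was -0.43 with total counts, -0.60 with no filter and -0.66 to -0.52 without a library, Mapk3 was 0.27 to 0.66 (called without Control 6), and 1 member was called with no filter and 1 to 3 without a library. With total counts 840 genes were higher and 270 lower there, in place of 485 and 452, and the median gene went from 0.04 to 0.21. Between Tyrphostin batches (112 to 450 genes without a library), Nras was 0.97 with total counts, and 2 members were called. Nras against treatment ran from -0.46 to -0.34 without a library. The Hras to Nras log2 ratio ran from -0.49 to 0.10. With basic exon lengths Map2k1 was at 189.6 and Map2k2 at 40.9 RPKM, and the Mapk3 gap between groups in batch 1 was -0.262 and -0.774 CPM under other scalings. Depth limits Hras most, with 2 to 19 counts per library.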
